A study of Homo sapiens with 95 samples.

Results

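The DNA replication and E2F genes described here are a module of 49 listed gene symbols: the replicative helicase, the factors that load and fire it, the polymerases, the sliding clamp, the enzymes that make nucleotides, the E2F factors, cyclin E and a few chromatin and checkpoint genes. A symbol was kept when it was listed in the count files and had a mean raw count of at least 1 over the 95 libraries. All 49 symbols were found among 27978 listed genes, of which 14407 passed that mean. The means of the 49 ran from 14.3 counts (E2F2) to 519 counts (MCM4), so none of them was lost to a filter on low counts.

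E2F transcription factors are held inactive by the retinoblastoma proteins until cyclin D and cyclin E kinases phosphorylate these, and the released E2F1 to E2F3 then switch on most genes of this module before S phase. Origins are licensed when ORC, CDC6 and CDT1 load the MCM helicase, which is started later by CDC7 kinase, CDC45 and the GINS complex. E2F7 and E2F8 are E2F targets that repress the same promoters late in the cycle.

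The libraries came from sparse full length (SFL) sequencing, a multiplexed RNA-seq method that depletes ribosomal RNA and tags each sample with its own barcode. The cells were AALE, human bronchial epithelial cells immortalized with telomerase and the early region of a simian virus, whose large T antigen binds the retinoblastoma and p53 proteins. All 8 lines share that background. FAT1 and CDKN2A were knocked out by CRISPR, with cells that received the GFP plasmid without a guide as their control. NRF2 (the gene NFE2L2), FGFR1, NRG1 and PIK3CA were overexpressed, with the HCRED vector as control. Each line was exposed to 1 dose of a tobacco chemical or to the solvent DMSO. The doses were 24 μg/ml for CSC, the condensate of cigarette smoke, 173 μM for the polycyclic hydrocarbon benzo(a)pyrene (BaP) and 490 μM for the nitrosamine NNK. That gives 32 groups, 31 of 3 libraries and 1 of 2 (FGFR1 with CSC). Each perturbation is 1 line. The paper describes the replicates of a condition as biological, and the labels do not say whether they were separate cultures. The p-values therefore measure the spread between libraries, not between lines made independently. In comparisons over all lines or all treatments, that spread is pooled over the groups and includes differences in response between them.

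Counted reads per library ran from 287446 to 2116383, and 9 libraries had fewer than 500000. The perturbed genes followed their labels. The median level of FAT1 was 104 CPM (counts scaled by TMM to a library of 1e6 reads) in its own line and 396 in GFP, and that of CDKN2A was 48.3 against 105. The overexpressed genes NFE2L2, FGFR1, NRG1 and PIK3CA had medians of 1372, 1203, 5718 and 516 CPM in their own lines and of 210.2, 52.0, 17.5 and 84.6 in HCRED. NRG1 also exceeded 50 CPM in 8 libraries of other lines, from 66.7 to 372 CPM, where the remaining libraries of those lines reached at most 41.6. These were all 3 NRF2 libraries with CSC, FGFR1 replicates 2 and 3 with DMSO, FGFR1 replicate 2 with BaP, FAT1 replicate 1 with CSC and CDKN2A replicate 3 with DMSO, and counts of calls without them are given beside the results they move. The basal keratin KRT5 was at 1613 CPM or more in every library. PTPRC, PECAM1 and COL3A1, markers of leukocytes, endothelium and fibroblasts, had medians of 0 and reached at most 2.53 CPM. In contrast, the fibroblast gene DCN had a median of 1.19 CPM and reached 5.58 CPM. The collagen gene COL1A1 lay between 4.68 and 60.6 CPM. In these bulk samples, fewer cells in S phase and less RNA per cell cannot be told apart.

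Promoter sequence gives a further description of the members. The list holds replication and E2F genes by choice, so its share of E2F sites is not independent of how members were chosen. RefSeq promoters on GRCh38.p14, from 250 bases before to 50 bases after the annotated start, were found for 43 of the 49 symbols. They were searched on both strands for 4 forms of the E2F site, TTTCGCGC, TTTGGCGC, TTTCCCGC and TTTGCCGC, which can overlap each other on opposite strands. At least 1 form was present in the first listed promoter of 23 of 43 members (53.5%), in 1164 of all 35116 promoters of the same length (3.31%) and in 908 of 27305 symbols by their first listed promoter (3.33%). The share was 20.8% in the other replication genes counted below, 15.8% in regulators of G1 and S phase and 12.5% in mitosis genes. Windows of 180 bases, 160 of them before the start, are given for 6 members whose levels are described below, with the matched bases in capitals.
MCM2, chromosome 3, 127598251 to 127598430, plus strand: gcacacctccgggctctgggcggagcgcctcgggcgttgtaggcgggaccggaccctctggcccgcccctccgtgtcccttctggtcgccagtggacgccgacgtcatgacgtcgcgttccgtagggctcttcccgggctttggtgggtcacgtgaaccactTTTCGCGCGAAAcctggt
MCM6, chromosome 2, 135876424 to 135876603, minus strand: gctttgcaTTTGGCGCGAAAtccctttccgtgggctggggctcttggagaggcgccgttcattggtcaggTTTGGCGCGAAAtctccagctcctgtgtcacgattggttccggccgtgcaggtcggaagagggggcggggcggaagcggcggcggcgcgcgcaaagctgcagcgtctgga
POLA1, chromosome X, 24693758 to 24693937, plus strand: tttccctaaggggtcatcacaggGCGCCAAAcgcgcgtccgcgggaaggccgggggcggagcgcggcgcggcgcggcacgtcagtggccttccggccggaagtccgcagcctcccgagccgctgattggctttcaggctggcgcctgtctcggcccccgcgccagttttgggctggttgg
E2F1, chromosome 20, 33686366 to 33686545, minus strand: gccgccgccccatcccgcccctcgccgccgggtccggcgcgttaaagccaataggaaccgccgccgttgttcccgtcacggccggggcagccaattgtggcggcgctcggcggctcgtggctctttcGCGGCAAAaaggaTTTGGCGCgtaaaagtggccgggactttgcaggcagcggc
RRM2, chromosome 2, 10122579 to 10122758, plus strand: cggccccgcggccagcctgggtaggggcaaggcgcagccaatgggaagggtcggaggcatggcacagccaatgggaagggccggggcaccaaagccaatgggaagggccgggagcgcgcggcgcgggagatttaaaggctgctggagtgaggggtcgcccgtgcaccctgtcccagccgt
E2F7, chromosome 12, 77065550 to 77065729, minus strand: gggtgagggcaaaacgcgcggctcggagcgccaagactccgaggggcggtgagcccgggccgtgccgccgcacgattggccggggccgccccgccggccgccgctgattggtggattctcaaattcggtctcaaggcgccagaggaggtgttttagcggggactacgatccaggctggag
In MCM2 and MCM6 the matches form the palindrome TTTCGCGCGAAA and the near-palindrome TTTGGCGCGAAA, in which forms are found on both strands. The windows of RRM2 and E2F7 hold none of the 4 forms, which says only that these letters are absent from the windows.

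Per kilobase of exon, and in the 24 DMSO libraries, the clamp gene PCNA stood highest at 309.5 ± 50.6 CPM per kb (SD, n = 24). The helicase subunit MCM4 followed at 149 ± 15.5, then the ribonucleotide reductase subunits RRM1 at 136 ± 16.9 and RRM2 at 109 ± 30.4, then MCM7 at 105 ± 15.3. MCM4 and RRM1 lay within each other's SD, as did RRM2 and MCM7, whereas PCNA and MCM4 did not. RRM1 and RRM2 differed by more than the SD of RRM1 and by less than that of RRM2. E2F8 (7.96 ± 2.49) and E2F2 (2.96 ± 0.844) were at the bottom. The lines differed most in E2F8, RRM2, the helicase activation factor gene MCM10 and POLA1, whose line means in DMSO had SDs of 0.466, 0.439, 0.355 and 0.353 on the log2 CPM scale, against 0.23, 0.14, 0.15 and 0.11 within lines. UHRF1 and MCM4 differed least, with SDs between line means of 0.12 and 0.13.

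The mean log2 CPM over the 49 members spanned only 6.32 to 6.76 over all libraries. It was 6.60 ± 0.07 (SD, n = 24) with DMSO, 6.55 ± 0.10 (n = 24) with NNK, 6.52 ± 0.11 (SD, n = 24) with BaP and 6.46 ± 0.10 (SD, n = 23) with CSC. By line it was highest in GFP (6.70 ± 0.05, n = 12) and lowest in FAT1 (6.43 ± 0.08, n = 12), and the GFP and FAT1 libraries did not overlap.

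**Figure D1:**
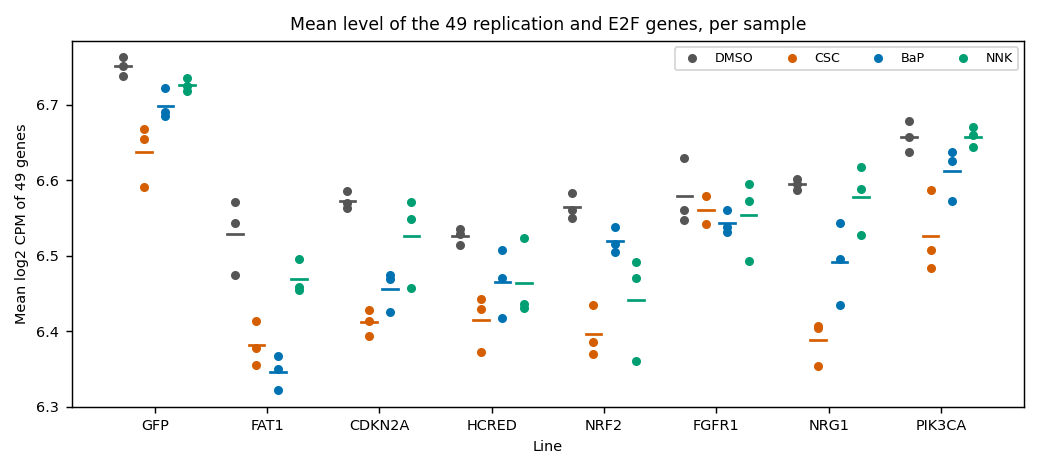
Mean log2 CPM of the 49 members (y axis) in each of the 95 libraries, by line (x axis) and treatment (colour), with a bar at each group mean. The GFP libraries lie between 6.59 and 6.76 and the FAT1 libraries between 6.32 and 6.57, and within most lines the DMSO mean is highest. In most lines the DMSO libraries overlap with treated ones.

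The chemicals were compared with DMSO over all lines to ask which replication genes move with exposure, by limma on voom-transformed counts with line as a covariate and Benjamini-Hochberg adjustment over all genes. With CSC, 27 of the 49 members fell and 9 rose, where 28.4% of all genes tested fell and 27.2% rose. With BaP 24 fell and 9 rose (all genes 25.1% and 26.4%), and with NNK 22 fell and 14 rose (all genes 25.8% and 26.0%). In either direction 36, 33 and 36 members were called, against 55.6%, 51.4% and 51.8% of all genes. The median log2 fold change over the members was -0.20, -0.11 and -0.06, where the median of all genes was near 0 in each comparison. The 3 comparisons share their DMSO libraries. In no member did the DMSO libraries separate fully from those of a chemical when lines were pooled, as they did in 0.255%, 0.0486% and 0.0417% of all genes with CSC, BaP and NNK.

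These comparisons move with the base composition of the genes. Across genes, the log2 level of a library, relative to the mean library, fell by 0.096 to 0.40 on the log2 scale per 10 points of GC content in the 24 DMSO libraries. The slope lay between -0.10 and 0.23 in the treated ones. Over the 49 members, whose GC content runs from 34.6% to 64.8%, the rank correlation of log2 fold change with GC content was 0.67, 0.76 and 0.87 with CSC, BaP and NNK, and over all genes it was 0.70, 0.72 and 0.77. Between the chemicals it was 0.053 for CSC against BaP, -0.33 for CSC against NNK and -0.50 for BaP against NNK. Treatment and this trend against DMSO cannot be told apart by design. Values of members against DMSO over all lines are therefore given with those of the same fit after removal of the GC and length trend from each library. After that removal 26 members were lower and 3 higher with CSC, where 16.4% of all genes were lower and 16.5% higher. With BaP 14 were lower and 4 higher (all genes 12.2% and 11.6%), and with NNK 11 lower and 2 higher (all genes 7.82% and 7.38%).

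**Figure D2:**
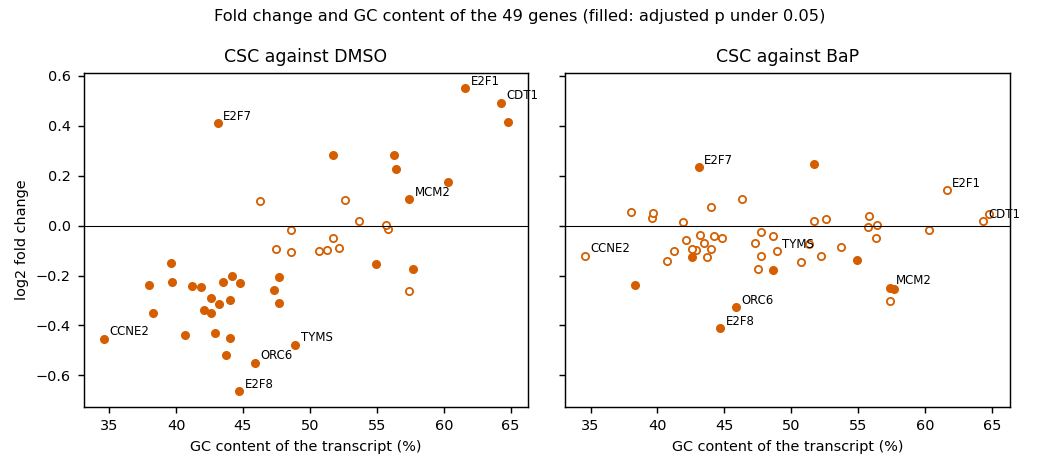
Log2 fold change of each of the 49 members (y axis) against the GC content of its transcript in percent (x axis), for CSC against DMSO on the left and CSC against BaP on the right, with filled points for limma adjusted p under 0.05. The points rise with GC content on the left, with a rank correlation of 0.67, and not on the right, where it is 0.053.

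Of the 6 helicase subunits, MCM6 fell and MCM2 and MCM5 rose against DMSO before the GC and length trend was removed. MCM6 ranged from 215 to 349 CPM with DMSO (median 291) and from 167 to 304 with CSC (median 230.1), and it was lower in 8 of 8 lines. Its log2 fold change was -0.32 (SE 0.04, limma adjusted p = 9.54e-13), and -0.14 (adjusted p = 5.48e-04) with the trend removed. The DMSO and CSC ranges overlapped.

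MCM2 had a lowest, median and highest level of 149.9, 214 and 257 CPM with DMSO, of 156, 228 and 289.9 with CSC, of 184, 255 and 401 with BaP and of 185, 257 and 418 with NNK. The NNK and BaP libraries reached higher than any DMSO library, and their lower ends overlapped the DMSO range. Against DMSO the log2 fold change was 0.37 with BaP (SE 0.04, limma adjusted p = 7.31e-13) and 0.37 with NNK (SE 0.04, adjusted p = 1.94e-14), each higher in 8 of 8 lines, and 0.11 with CSC (SE 0.04, adjusted p = 0.0113). With the trend removed these became 0.098 (adjusted p = 0.0371), 0.093 (adjusted p = 0.0709) and, reversed, -0.15 (adjusted p = 4.51e-04). MCM5 had a log2 fold change of 0.39 with NNK (limma adjusted p = 4.26e-13) and kept 0.15 (adjusted p = 0.00665) with the trend removed.

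Cyclin E2, the CCNE2 product that activates the kinase driving entry into S phase, had 83.0, 125 and 190 CPM with DMSO as lowest, median and highest, and 69.1, 96.7 and 117 with CSC. The medians with BaP and NNK were 97.5 and 97.9 CPM. Its log2 fold change was -0.45 with CSC (SE 0.05, limma adjusted p = 6.32e-14), -0.31 with BaP (adjusted p = 9.96e-08) and -0.30 with NNK (adjusted p = 3.58e-07). CCNE2 has the lowest GC content of the members (34.6%), and with the trend removed the values were -0.086 (adjusted p = 0.15), -0.039 (adjusted p = 0.602) and 0.038 (adjusted p = 0.674). None of these passed.

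Claspin, the checkpoint adaptor at the fork encoded by CLSPN, was among the members that fell with every chemical in both fits. Its lowest, median and highest levels were 244, 295 and 429 CPM with DMSO, 166, 216 and 286 with CSC, 178, 234 and 381 with BaP and 169, 255 and 330.4 with NNK. The CSC libraries lay mostly under the DMSO range. The log2 fold changes of CLSPN were -0.45 (SE 0.04, limma adjusted p = 1.58e-20), -0.34 (adjusted p = 5.67e-12) and -0.27 (adjusted p = 3.36e-09), and with the trend removed -0.32 (adjusted p = 3.29e-13), -0.19 (adjusted p = 3.16e-05) and -0.16 (adjusted p = 4.19e-04). CLSPN was lower with CSC in 8 of 8 lines.

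All 4 nucleotide supply genes were lower with CSC once the GC and length trend was removed, where 16.4% of all genes were. RRM1, the large subunit of ribonucleotide reductase, had a median of 435 CPM with DMSO (300.5 to 517) and of 339.5 with CSC (234 to 423), with a log2 fold change of -0.35 (SE 0.03, limma adjusted p = 6.14e-19) and of -0.16 (adjusted p = 1.19e-06) with the trend removed. RRM2, the small subunit made in S phase, had a median of 354 CPM with DMSO and of 290.1, 289.7 and 281 with CSC, BaP and NNK, over ranges as wide as 133 to 538. Those ranges overlapped almost wholly, since the lines differ in RRM2, yet RRM2 was lower than DMSO in 8 of 8 lines with each chemical. Its log2 fold changes were -0.34, -0.27 and -0.31 (largest limma adjusted p 2.26e-09), and -0.13 (adjusted p = 0.00373), -0.11 (adjusted p = 0.0196) and -0.13 (adjusted p = 0.00369) with the trend removed. TYMS, which makes thymidylate, had a median of 69.4 CPM with DMSO and of 48.5 with CSC, and its log2 fold change was -0.48 in both fits (limma adjusted p = 2.94e-11 before the trend was removed).

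Among polymerase and origin genes, POLA1, the catalytic subunit of polymerase alpha, had a median of 143 CPM with DMSO (76.7 to 214) and of 111 with CSC (60.7 to 159). Its log2 fold change was -0.43 (SE 0.04, limma adjusted p = 1.22e-15), and -0.26 (adjusted p = 2.18e-07) with the trend removed. ORC6, a subunit of the origin recognition complex, had a median of 52.7 CPM with DMSO and of 36.6 with CSC, and a log2 fold change of -0.55 (limma adjusted p = 9.72e-12), which became -0.47 with the trend removed. CDT1, the licensing factor, rose in the first fit (median 53.6 CPM with DMSO and 81.0 with CSC, log2 fold change 0.49) and not with the trend removed (-0.023, adjusted p = 0.805). POLD1, the catalytic subunit of polymerase delta, behaved alike with NNK, with 0.50 (limma adjusted p = 3.08e-11) before and -0.024 (adjusted p = 0.845) after.

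The E2F factors did not move together. E2F7 had a lowest, median and highest level of 111, 139 and 225 CPM with DMSO, 133, 189.6 and 294 with CSC, 119.7, 160.0 and 252 with BaP and 106, 142 and 223 with NNK. The CSC libraries were shifted up and the NNK libraries covered the DMSO range. E2F7 rose with CSC in 8 of 8 lines, by a log2 fold change of 0.41 (SE 0.04, limma adjusted p = 3.41e-14), or 0.58 (adjusted p = 2.15e-22) with the trend removed. With BaP the values were 0.20 (adjusted p = 7.67e-05) and 0.35 (adjusted p = 1.82e-10), and with NNK -0.0067 (adjusted p = 0.916) and 0.13 (adjusted p = 0.0219).

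E2F8, the closest relative of E2F7, went the other way with CSC. Its lowest, median and highest levels were 11.4, 30.0 and 48.5 CPM with DMSO and 7.46, 17.4 and 31.3 with CSC. Its log2 fold change was -0.66 (SE 0.10, limma adjusted p = 1.17e-08), and -0.54 (adjusted p = 2.81e-06) with the trend removed. E2F1, an activator, had a median of 61.0 CPM with DMSO and of 91.8, 79.8 and 89.0 with CSC, BaP and NNK. E2F1 rose in the first fit with each (log2 fold changes 0.55, 0.42 and 0.55), and with the trend removed only the CSC value stayed under 0.05 (0.14, adjusted p = 0.0374), beside 0.013 (adjusted p = 0.9) with BaP and 0.13 (adjusted p = 0.101) with NNK.

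**Figure D3:**
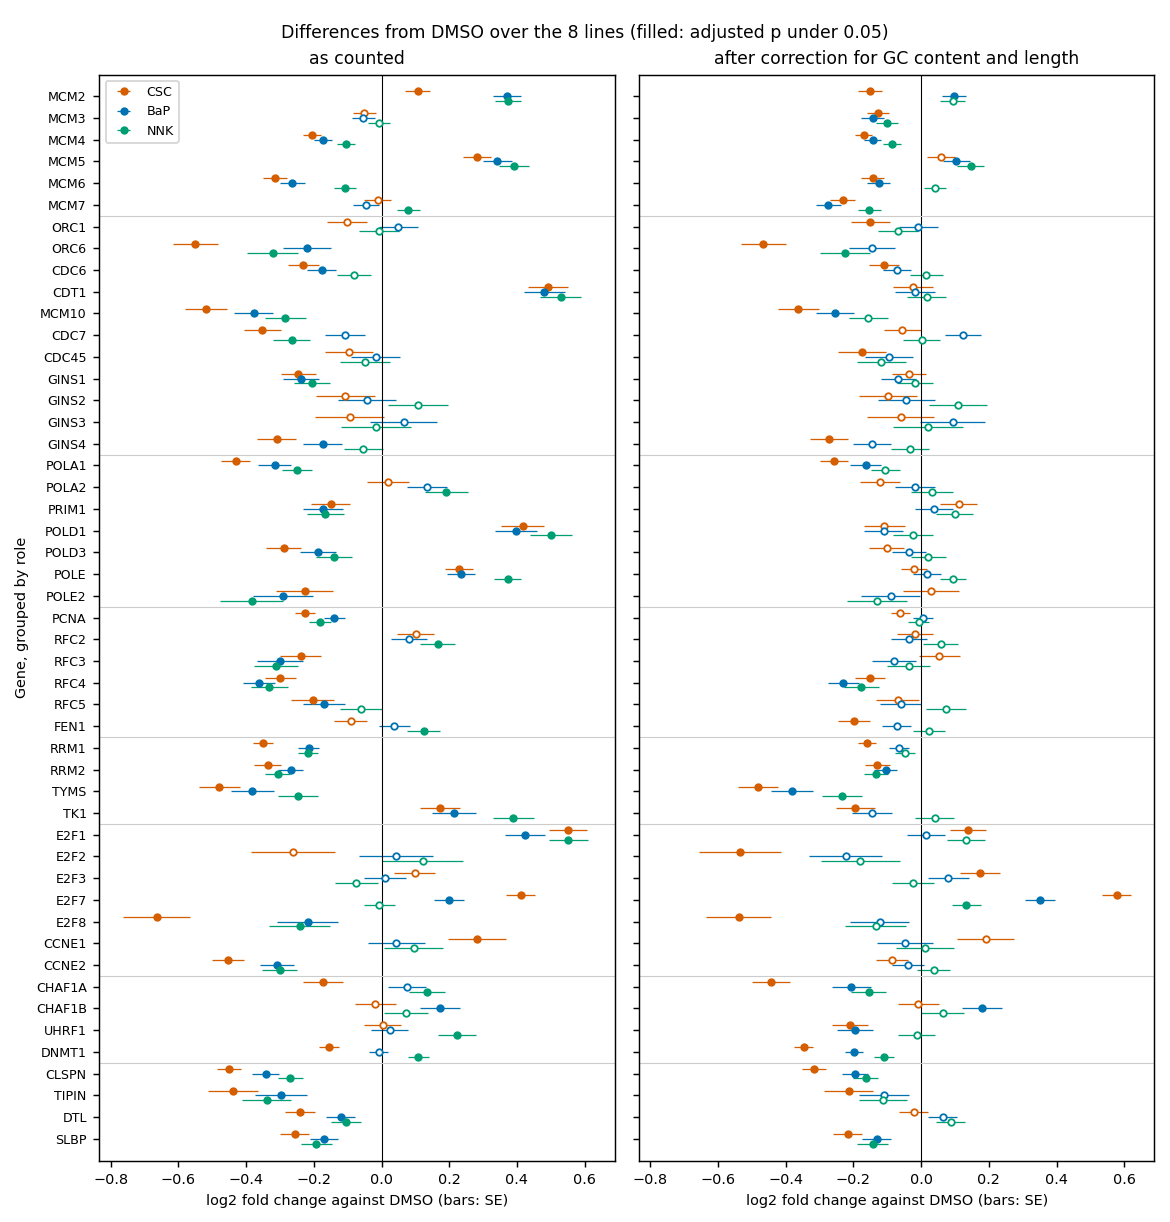
Log2 fold change (x axis, bars are standard errors) of each of the 49 members (y axis) with CSC, BaP and NNK against DMSO over all lines, before (left) and after (right) removal of the GC and length trend, filled where the limma adjusted p is under 0.05. E2F7 stays above 0 with CSC and BaP in both fits, whereas CCNE2, at -0.45 with CSC before, is at -0.086 after.

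By role, the members lower and higher with CSC after removal of the trend were 5 and 0 of 6 helicase subunits, 6 and 0 of 11 loading and firing factors, 1 and 0 of 7 polymerase genes, 2 and 0 of 6 clamp and clamp loader genes, 4 and 0 of 4 nucleotide supply genes, 2 and 3 of 7 E2F and cyclin E genes, 3 and 0 of 4 chromatin genes, and 3 and 0 of 4 checkpoint and other genes. In that fit 16.4% of all genes were lower and 16.5% higher. Before removal of the trend, 2 helicase subunits, 1 loading factor, 2 polymerase genes, 1 nucleotide supply gene and 3 E2F and cyclin E genes were higher, where 27.2% of all genes were. The roles hold 4 to 11 members each, and differences between roles were not tested.

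Within single lines, 3 libraries against 3 or 2, the members called with CSC ranged from 5 (NRF2) to 22 (GFP) against backgrounds of 9.09% and 25.0%. In NRF2 all 5 were lower, and the 3 NRF2 libraries with CSC are among those with NRG1 reads. FGFR1, with 2 CSC libraries, was the line in which more members were higher (4) than lower (3), against a background of 11.7%. With BaP no member was called in HCRED (background 4.73%), where 13 members had an unadjusted p under 0.05 in limma. With the trend removed the CSC counts were 3 in NRF2 (all genes 4.71%), 11 in GFP (6.35%) and 1 in FGFR1 (3.11%), and the BaP count in HCRED was 2 (1.29%). Over the 8 lines, limma then called between 1 and 12 members with CSC and at most 5 with BaP and 1 with NNK, where it had called up to 22, 15 and 15. Differences between lines in these counts were not tested.

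The chemicals were then compared with each other, where the relation to GC content was weaker than against DMSO. With CSC against NNK, 17 members were lower and 2 higher, where 10.7% of all genes were lower and 10.9% higher. With the trend removed these were 18 and 2 (all genes 11.4% and 10.6%). With CSC against BaP, 8 were lower and 2 higher (all genes 6.52% and 8.58%), or 10 and 2 with the trend removed (8.02% and 8.86%). With BaP against NNK 5 were lower and 1 higher (all genes 5.34% and 3.86%), or 3 and 1 with the trend removed (5.03% and 4.05%). The doses differ in kind and amount, so these are differences between the treatments as given. The CSC against BaP count was 6 without replicate 1 or without replicate 2, the CSC against NNK count 12 without replicate 2 and 10 without replicate 3, and the BaP against NNK count between 1 (without replicate 1) and 3 (without replicate 3 or the NRG1 line), or 2 without the FAT1 line.

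E2F7 led both CSC comparisons. It was higher with CSC than with NNK by 0.45 on the log2 scale (SE 0.05, limma adjusted p = 8.20e-14) and higher than with BaP by 0.23 (SE 0.04, adjusted p = 1.57e-05), in 8 of 8 lines each time. MCM2 was lower with CSC than with NNK (log2 fold change -0.27, SE 0.04, adjusted p = 1.06e-07) and than with BaP (-0.25, SE 0.05, adjusted p = 2.03e-05), again in 8 of 8 lines. DNMT1, the maintenance DNA methyltransferase, had a median of 328 CPM with CSC (262 to 508), 357 with BaP (297 to 523) and 389 with NNK (310.5 to 636), and CSC differed from NNK by -0.26 (SE 0.04, limma adjusted p = 4.42e-09). CHAF1A, the large subunit of the histone chaperone that follows the fork, was lower with CSC than with NNK (-0.32, limma adjusted p = 1.70e-06) and than with BaP (-0.25, adjusted p = 4.50e-04). For MCM2 the BaP and NNK values differed by 0.008 (SE 0.05, limma adjusted p = 0.954). CCNE2 passed in none of the 3 comparisons, with -0.12 for CSC against NNK (limma adjusted p = 0.125) and -0.12 for CSC against BaP (adjusted p = 0.121).

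The lines were compared with their own control over all 4 treatments, with treatment as a covariate, to ask how each perturbation goes with the module. Against GFP, 30 members were lower and 5 higher in FAT1, where 23.9% of all genes were lower and 24.9% higher, and 27 lower and 9 higher in CDKN2A (all genes 28.3% and 29.4%). Against HCRED, 7 were lower and 7 higher in NRF2 (all genes 11.2% and 10.5%), and 3 lower and 15 higher in PIK3CA (13.8% and 14.0%). In FGFR1 limma called 0 lower and 9 higher (6.19% and 7.25%), and in NRG1 0 lower and 5 higher (4.92% and 5.83%). The 2 control lines themselves differed, since HCRED had 33 members lower and 5 higher than GFP (22.2% and 22.8%). The FAT1, CDKN2A and HCRED comparisons share the GFP libraries, and the other 4 share those of HCRED. The slope on GC content also differed between lines. In DMSO it was -0.40 to -0.31 in GFP, -0.19 to -0.17 in FAT1, -0.22 to -0.16 in CDKN2A and -0.30 to -0.18 in HCRED. Line values are given before removal of the trend unless stated. With it removed, 146 of these member calls stayed called in the same direction, 9 lost the call and 0 changed direction.

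With HCRED in place of GFP as the control, an alternative chosen after the control lines were seen to differ, 16 members were lower and 17 higher in FAT1 (all genes 21.0% and 21.8%), and 12 lower and 14 higher in CDKN2A (all genes 27.2% and 26.2%). The excess of lower members in those lines against GFP was therefore not present against the other control.

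**Figure D4:**
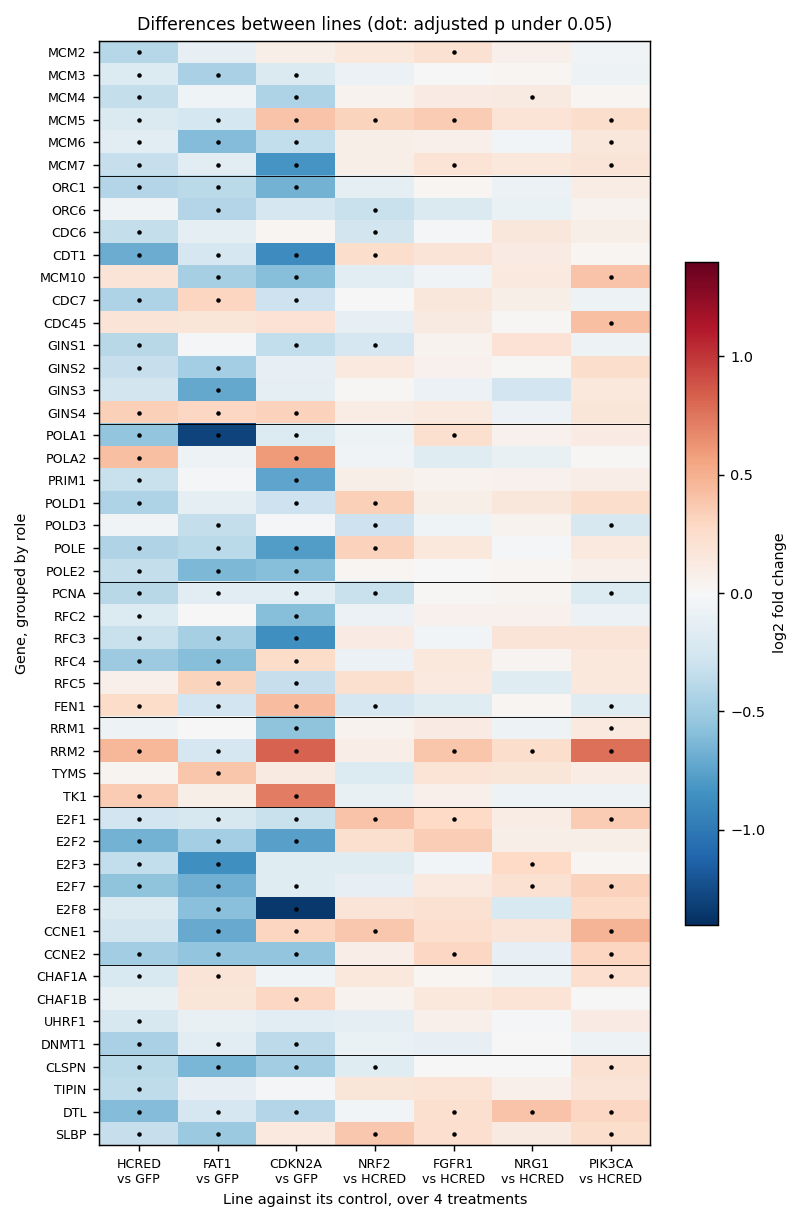
Log2 fold change (colour scale) of each of the 49 members (rows) in every line against its control over all treatments (columns), with a dot where the limma adjusted p is under 0.05. Most members lie under 0 in FAT1, CDKN2A and HCRED against GFP, with medians of -0.24, -0.20 and -0.32, and above 0 in PIK3CA against HCRED, with a median of 0.14.

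In the FAT1 line POLA1 was the member that differed most clearly from GFP. Its 12 libraries had 48.4, 65.2 and 94.3 CPM as lowest, median and highest, the 12 GFP libraries 137, 166 and 214, and the 12 HCRED libraries 82.2, 117 and 142. FAT1 and GFP did not overlap. The log2 fold change was -1.30 (SE 0.08, limma adjusted p = 2.50e-25), and -0.75 (adjusted p = 1.72e-12) against HCRED. Against HCRED the smallest adjusted p was that of RRM2, with -0.68 (limma adjusted p = 8.06e-16). In DMSO the POLA1 libraries had 76.7, 91.9 and 94.3 CPM in FAT1 against 204, 207 and 214 in GFP.

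Other members lower in FAT1 against both controls were CLSPN (-0.64 against GFP, limma adjusted p = 8.11e-18), MCM6 (-0.60, adjusted p = 1.75e-14), MCM3 (-0.46, adjusted p = 1.58e-13) and E2F3 (-0.86, adjusted p = 1.84e-11). E2F3 had a median of 37.7 CPM in FAT1 (24.7 to 49.2) and of 65.9 in GFP (51.2 to 85.2), without overlap. All 7 E2F and cyclin E genes were lower in FAT1 than in GFP, where 23.9% of all genes were lower. Against HCRED 3 of them (E2F3, E2F8 and CCNE1) were lower as well, where 21.0% of all genes were. Against HCRED, E2F1 had 0.067 (limma adjusted p = 0.548), E2F2 0.24 (adjusted p = 0.281), E2F7 -0.077 (adjusted p = 0.356) and CCNE2, which had -0.55 against GFP (adjusted p = 1.81e-10), -0.031 (adjusted p = 0.77). MCM7, CDT1 and POLE were lower than in GFP and, with HCRED as control, had 0.17 (adjusted p = 0.00557), 0.46 (adjusted p = 7.56e-06) and 0.051 (adjusted p = 0.549). CDC7, the kinase that fires origins, was higher in FAT1 against both, by 0.30 (limma adjusted p = 4.13e-04) and 0.74 (adjusted p = 6.64e-12). MCM2 did not pass against GFP (-0.12, limma adjusted p = 0.0618), had -0.24 (adjusted p = 7.81e-05) with the GC and length trend removed, and was higher against HCRED by 0.30 (adjusted p = 8.02e-06).

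In the CDKN2A line, where the gene of a cyclin D kinase inhibitor was targeted, RRM2 was higher and 27 members were lower than in GFP. RRM2 had 285, 337 and 426 CPM as lowest, median and highest, against 149.6, 192 and 256 in GFP and 188, 264 and 345 in HCRED. It did not overlap with GFP. The log2 fold change was 0.83 (SE 0.05, limma adjusted p = 4.42e-23), and 0.36 (adjusted p = 1.11e-08) against HCRED.

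MCM7 had 139, 178 and 197 CPM in CDKN2A and 269, 295 and 358 in GFP, also without overlap. Its log2 fold change was -0.83 (SE 0.06, limma adjusted p = 3.52e-21), and -0.51 (adjusted p = 1.32e-11) against HCRED. E2F8 had 7.46, 11.4 and 16.0 CPM in CDKN2A against 16.8, 26.9 and 48.5 in GFP, with -1.35 (SE 0.16, limma adjusted p = 3.21e-11) and -1.10 (adjusted p = 3.84e-08) against HCRED. POLE, RRM1 and MCM10 were lower against both controls, with -0.79, -0.56 and -0.60 against GFP and -0.39, -0.51 and -0.76 against HCRED.

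Higher in CDKN2A against both controls were MCM5 (0.40 against GFP, limma adjusted p = 1.09e-07), the flap endonuclease FEN1 (0.43, adjusted p = 6.14e-08), thymidine kinase TK1 (0.72, adjusted p = 1.65e-09) and cyclin E1, CCNE1 (0.30, adjusted p = 0.0312). CDT1, with -0.88 against GFP (limma adjusted p = 2.90e-14), had -0.18 (adjusted p = 0.112) against HCRED. CCNE2 had -0.55 against GFP (limma adjusted p = 1.17e-09) and -0.035 (adjusted p = 0.733) against HCRED, and MCM2 had 0.087 against GFP (adjusted p = 0.157) and was higher against HCRED by 0.50 (adjusted p = 1.04e-10). In 9 of the 49 members the CDKN2A and GFP libraries did not overlap, where this held for 8.55% of all genes. The same count was 2 in FAT1 (all genes 4.23%), 2 in HCRED against GFP (2.91%) and 1 in PIK3CA (1.57%).

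**Figure D5:**
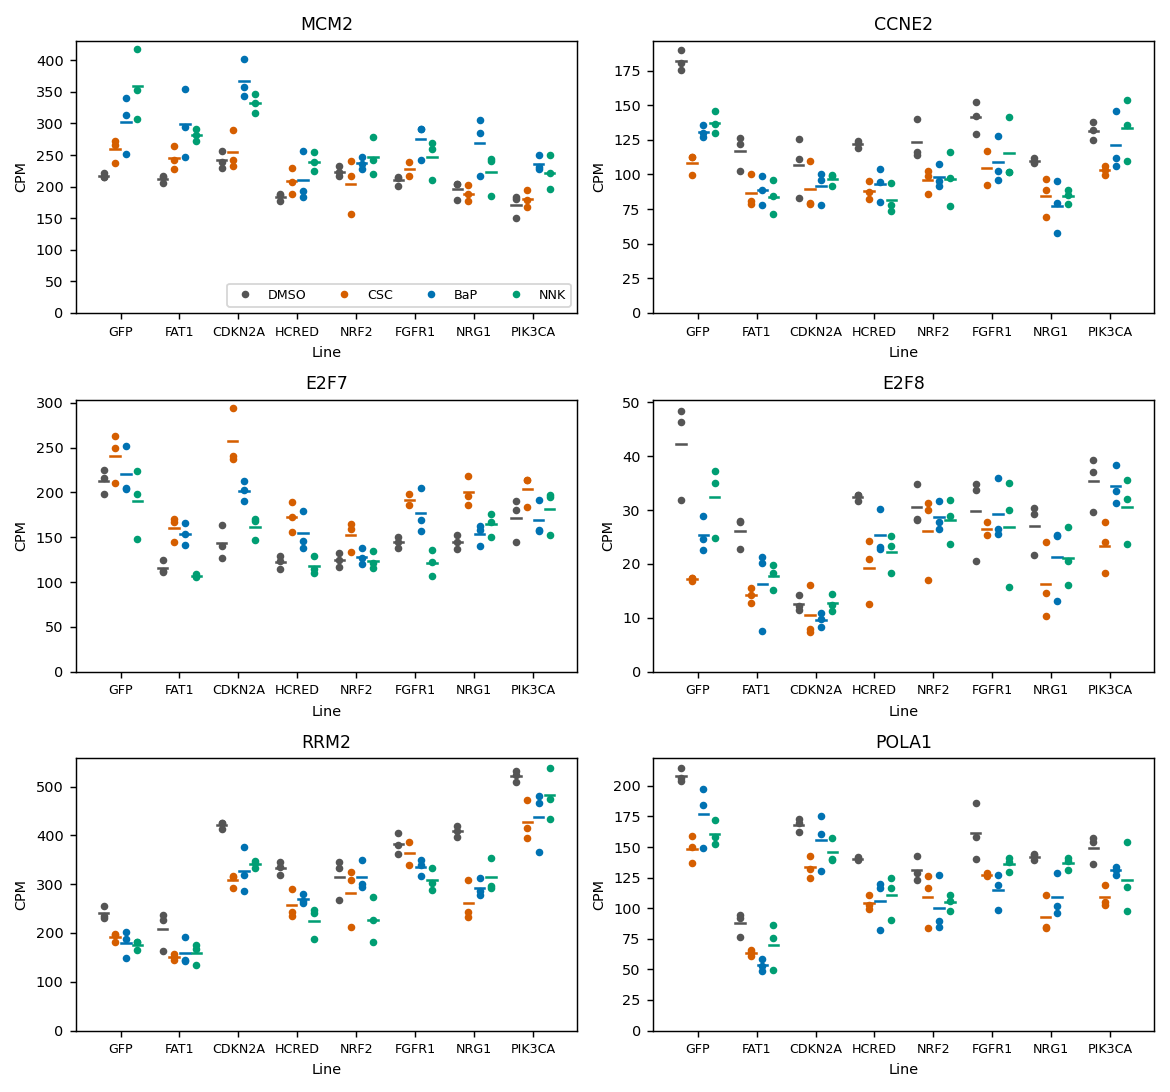
CPM (y axis, from 0) of MCM2, CCNE2, E2F7, E2F8, RRM2 and POLA1 in every library, by line (x axis) and treatment (colour), with a bar at each group mean. RRM2 is highest in PIK3CA, at 365 to 538 CPM, POLA1 is lowest in FAT1, at 48.4 to 94.3 CPM, and E2F8 is lowest in CDKN2A, at 7.46 to 16.0 CPM.

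RRM2 was higher than in HCRED in PIK3CA, FGFR1 and NRG1. PIK3CA had 365, 474 and 538 CPM as lowest, median and highest, and did not overlap with HCRED. FGFR1 had 289, 340.1 and 404 CPM and NRG1 232, 302 and 419 CPM, and both overlapped with it. The log2 fold changes were 0.77 (SE 0.05, limma adjusted p = 4.62e-22), 0.39 (SE 0.05, adjusted p = 7.72e-09) and 0.25 (SE 0.05, adjusted p = 7.87e-04), each with the same direction in 4 of 4 treatments. The order of RRM2 medians over lines was PIK3CA, FGFR1, CDKN2A, NRG1, NRF2, HCRED, GFP and FAT1. The medians of FGFR1 and CDKN2A, 340.1 and 337 CPM, did not differ beyond the spread of their libraries.

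PIK3CA is the line with overexpression of a lipid kinase subunit. Higher there than in HCRED were E2F1 (0.36, limma adjusted p = 1.92e-04) and E2F7 (0.32, adjusted p = 3.54e-05). So were CCNE1 (0.48, limma adjusted p = 5.89e-04) and CCNE2 (0.30, adjusted p = 4.85e-04). Thus 4 of the 7 E2F and cyclin E genes rose, where 14.0% of all genes did. MCM10 (0.40, limma adjusted p = 4.17e-05) and CDC45 (0.42, adjusted p = 4.35e-04), which act when the helicase starts, rose too. PCNA (-0.19, limma adjusted p = 7.08e-04), FEN1 (-0.17, adjusted p = 0.0328) and the polymerase delta subunit POLD3 were the 3 that fell.

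In NRF2, PCNA had 204, 268 and 350.1 CPM as lowest, median and highest against 277, 347 and 393 in HCRED, with overlap. Its log2 fold change was -0.32 (SE 0.05, limma adjusted p = 1.13e-06). SLBP, which binds histone mRNA, was higher by 0.37 (adjusted p = 1.12e-05), POLE by 0.32 (adjusted p = 1.12e-05) and MCM5 by 0.32 (adjusted p = 4.95e-05). The count of 14 fell to 7 without the DMSO or the BaP libraries, to 9 without replicate 1 and to 8 without replicate 2, and was 14 without the 3 libraries with NRG1 reads.

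In FGFR1, MCM5 (0.36, limma adjusted p = 2.28e-05), CCNE2 (0.29, adjusted p = 0.0019), MCM7 (0.19, adjusted p = 0.00525) and MCM2 (0.21, adjusted p = 0.00728) were higher than in HCRED. The count of 9 fell to 5 without the DMSO libraries, without replicate 2 or without replicate 3, and was 6 without the 3 libraries with NRG1 reads. In NRG1, DTL, the adaptor that targets CDT1 for destruction, was higher by 0.40 (limma adjusted p = 1.67e-05), with a median of 133 CPM against 96.7 in HCRED, and E2F7, E2F3 and MCM4 were higher by 0.22, 0.28 and 0.12. The NRG1 count of 5 was 1 without DMSO, 3 without CSC or NNK, 2 without replicate 1 or replicate 2, and 3 without replicate 3.

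HCRED differed from GFP in DNMT1 by -0.46 (SE 0.04, limma adjusted p = 3.17e-17), with 311, 368 and 395 CPM as lowest, median and highest against 452, 496 and 531. DTL (-0.61), PCNA (-0.39), E2F7 (-0.56), CDT1 (-0.70), MCM4 (-0.33), CCNE2 (-0.49) and MCM2 (-0.40) were lower in HCRED as well, and RRM2 (0.46), POLA2 (0.43), TK1 (0.36), GINS4 (0.33) and FEN1 (0.25) were higher, all with limma adjusted p under 0.05.

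In DMSO alone, with 3 libraries a group, the counts were smaller. Against GFP, 15 members were lower and 2 higher in FAT1 (14.3% of all genes were lower and 26.3% called in either direction), 22 lower and 5 higher in CDKN2A (all genes 18.3% lower and 18.9% higher) and 16 lower and 2 higher in HCRED (8.77% and 8.95%). Against HCRED, 1 was lower and 4 higher in NRF2 (3.89% and 3.26%), 1 lower and 4 higher in PIK3CA (3.81% and 4.78%), and 0 lower and 1 higher in NRG1 (0.946% and 1.08%). In FGFR1 limma called 0 members (background 1.86%), with 4 at an unadjusted p under 0.05, and edgeR and DESeq2 called 0 and 0. With HCRED in place of GFP the CDKN2A count was 15, of which 9 were higher and 6 lower (all genes 14.4% and 15.3%), and in FAT1 8 were higher and 5 lower (8.99% and 10.6%).

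RRM2 shows the DMSO values. It had 229.9, 235 and 256 CPM in GFP, 412, 425 and 426 in CDKN2A, 319, 335 and 345 in HCRED, 397, 409 and 419 in NRG1, and 508, 524 and 532 in PIK3CA. The CDKN2A, PIK3CA and NRG1 libraries did not overlap with those of their controls. For CDKN2A and PIK3CA the limma log2 fold changes were 0.81 (adjusted p = 9.08e-15) and 0.64 (adjusted p = 2.01e-10). For NRG1 it was 0.32 (limma adjusted p = 0.0115).

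The smaller DMSO counts rested on single libraries. The NRF2 count of 5 was 1 without HCRED replicate 3 or NRF2 replicate 1, 2 without NRF2 replicate 2 and 3 without NRF2 replicate 3. The PIK3CA count of 5 was 2 without HCRED replicate 1 or 3, and 3 without PIK3CA replicate 1 or 3. The NRG1 count of 1, which is RRM2, was 0 without HCRED replicate 1 or NRG1 replicate 1, and the FGFR1 count was 1 without FGFR1 replicate 3 and 0 without the libraries with NRG1 reads. Without the CDKN2A library with NRG1 reads the CDKN2A count of 27 was 24.

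Whether a chemical response differed between a line and its control was tested by 18 interaction contrasts in a fit of all 95 libraries. Across them 1 member was called, E2F7 for CSC in CDKN2A, a contrast in which 0.174% of all genes were called. E2F7 had 127, 140.0 and 164 CPM in the CDKN2A libraries with DMSO and 237, 240.2 and 294 with CSC, and in GFP 198, 217 and 225 with DMSO and 210.3, 249.6 and 262 with CSC. The CDKN2A groups did not overlap, and the GFP groups did. In fits of each line alone the response was 0.90 (SE 0.11, limma adjusted p = 3.84e-12) in CDKN2A and 0.18 (SE 0.09, adjusted p = 0.144) in GFP, and the difference was 0.68 (SE 0.15, adjusted p = 0.0169; 0.69, adjusted p = 0.0172, with the trend removed). Without any one replicate number it kept its direction (0.64 to 0.79) and lost its call (limma adjusted p = 0.0979 to 0.345). Without the libraries with NRG1 reads, of which CDKN2A replicate 3 with DMSO (140.0 CPM of E2F7) is 1, it was 0.67 and lost its call as well (limma adjusted p = 0.0609). E2F7 was also called with CSC in the FAT1, HCRED, FGFR1 and NRG1 lines alone, before removal of the trend. Its response was thus not particular to CDKN2A, and the difference from the HCRED response was not tested.

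Further lists of the same pathway were counted in the same fits. Of 29 other replication genes, 17 fell and 6 rose with CSC (all genes 28.4% and 27.2%), and 14 and 3 with the trend removed (16.4% and 16.5%). GMNN, the inhibitor of CDT1, had a median of 117 CPM with DMSO and 88.4 with CSC (-0.42, limma adjusted p = 2.04e-12, and -0.26 with the trend removed). Ligase gene LIG1 had -0.42 for CSC against NNK (limma adjusted p = 4.30e-09). In CDKN2A against GFP 16 of these 29 were lower and 7 higher (all genes 28.3% and 29.4%).

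Of 25 G1 and S regulators, 12 fell and 8 rose with CSC, against the same shares of all genes, and 5 and 6 with the trend removed. CDKN1A, which encodes the p21 kinase inhibitor, rose with CSC by 0.97 (limma adjusted p = 9.51e-35), with BaP by 0.98 and with NNK by 0.69, and by 0.70, 0.70 and 0.42 with the trend removed. MYC, a growth factor response gene, rose by 1.18 with CSC (limma adjusted p = 3.75e-33), 0.78 with BaP and 0.72 with NNK, and by 1.19, 0.78 and 0.71 with the trend removed. CCND1, which encodes cyclin D1, rose by 0.34 with CSC (limma adjusted p = 8.80e-08) and by 0.31 with the trend removed, and had -0.033 (adjusted p = 0.62) and -0.080 (adjusted p = 0.276) with BaP.

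Of 20 mitosis genes, 17 fell and 0 rose with CSC (28.4% of all genes fell), 18 and 0 with BaP (25.1%) and 16 and 0 with NNK (25.8%), and with the trend removed 19, 19 and 14 fell (all genes 16.4%, 12.2% and 7.82%) and 0 rose. The difference between this list and the module was not tested. TOP2A had a median of 1447 CPM with DMSO and of 901 with CSC (-0.68, limma adjusted p = 7.74e-43; -0.40 with the trend removed), and the proliferation marker MKI67 1916 and 1384 (-0.48 in both fits). Against HCRED 12 of the 20 were higher and 0 lower in PIK3CA (all genes 14.0% and 13.8%), and against GFP 16 were lower and 1 higher in CDKN2A (28.3% and 29.4%) and 12 were higher and 4 lower in HCRED (22.8% and 22.2%). The median log2 fold change of HCRED against GFP was 0.26 over the mitosis genes and -0.32 over the module.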

How the data were processed

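SFL profiles of 95 AALE samples were used, in 32 combinations of 8 lines and 4 treatments. Per the submitters' processing notes and the methods, the authors trimmed single-end reads with cutadapt 1.12, aligned them to hg19 with STAR 2.5.2b and counted reads per RefSeq gene with featureCounts. They deposited 1 raw count per gene and sample, with no normalization, and counts are the only unit used here. No molecular identifiers are stated for these reads, so precision from counts covers counting error only. Groups and replicate numbers come from the sample labels.

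Counts were scaled by TMM (edgeR 4.0.16, R 4.3.3) and tested with limma 3.58.1 after the voom transformation, over genes with a mean count over 1 in the fitted samples, 2-sided, with Benjamini-Hochberg adjustment over all genes tested and a threshold of 0.05. Only the samples compared were fitted, except for interactions. CPM are counts divided by the TMM-scaled library size and multiplied by 1e6, and mean log2 CPM over a list uses a prior count of 2. The GC and length correction removed from each sample 2 loess trends (span 0.3) over genes whose GC content and exon length came from GENCODE models on GRCh37, found for 24309 of 27978 symbols (86.9%) and for all 49 members. The slopes on GC content used 9708 genes. The fits were tested on simulated data with 200 changed genes.

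The members, the further lists and the tests were chosen with earlier results of these data known. Values are given for MCM2, CCNE2, the perturbed genes and members among the up to 8 with the smallest adjusted p in a comparison and a mean count of at least 10. Not all of these are given for every comparison, so the values printed are a further selection. Other members that are named were chosen after their values were seen. Other settings tried were the edgeR quasi-likelihood test, DESeq2 1.42.0 (Wald test, no independent filtering or Cook's filter), RLE size factors, other filters on low counts, libraries under 500000 reads left out, the GC and length correction, the replicate number as a block, 1 fit of all 95 samples, leave-one-out fits and, chosen after seeing the data, HCRED in place of GFP and leaving out libraries of other lines with over 50 CPM of NRG1. Over 94 pairs of replicates the chi-square per degree of freedom of their counts was 1.13 to 2.65, so none was counted as 1 sample.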

Additional observations from a re-analysis of the deposited data

Results flagged for a closer look

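The CSC response of E2F7 differed between the CDKN2A line and GFP by a test of the difference itself, with a log2 interaction of 0.68 (SE 0.15, limma adjusted p = 0.0169). It was 1 call among 18 contrasts of 49 members each, and it was lost when any one replicate number, or the libraries of other lines with NRG1 reads, were left out. E2F7 was also called with CSC in the FAT1, HCRED, FGFR1 and NRG1 lines alone, before removal of the GC and length trend. The difference between CDKN2A and HCRED in this response was not tested. The cause of the difference from GFP was not tested.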

How the results depend on the processing

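The counts of called members were recomputed under 12 alternatives beside leave-one-out fits, and 217 such counts stayed within 1.5 times the value reported and 28 did not. Shares of all genes called are given only for the main fits, the GC and length correction and HCRED as control. Under the other settings, a change of calls in the module cannot be told apart from a change of calls over all genes. With edgeR, RLE size factors, a mean count of at least 10, or the libraries under 500000 reads or those with NRG1 reads (an alternative chosen after seeing the data) left out, or the replicate block, every count stayed so, apart from the interactions, where 0 members were called without the libraries with NRG1 reads. The sum of CSC calls over the 8 single lines was not run without them, since no NRF2 library with CSC is then left, and the NRF2 interaction with CSC is missing for the same reason. DESeq2 called 8 members for FAT1, 0 for NRF2, 0 for NRG1, 1 for PIK3CA and 11 for HCRED against GFP in DMSO, and 42, 19 and 15 for CSC, BaP and NNK summed over the single lines, where limma called 118, 57 and 60. Without a filter on low counts BaP against NNK gave 3 and NRF2 in DMSO 3. With 1 fit of all 95 samples NRF2 in DMSO gave 3 and NRG1 in DMSO 0. With the GC and length correction BaP gave 18, NNK 13, NRF2 in DMSO 1, NRG1 in DMSO 3, and the single lines 53, 15 and 1 with CSC, BaP and NNK. HCRED in place of GFP, chosen after seeing the data, gave 15 for CDKN2A in DMSO.

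Samples of the groups compared share a replicate number and no stated batch. The mean correlation of same-numbered deviations from the group means was -0.023 to 0.115 over the comparisons, and in 0 of them did every pair exceed 0.1. In 10 of 44 with at least 3 pairs every sample correlated best with its own number. Whether a number marks a shared effect was not tested. The main fits left the number out, and counts from fits with it as a block follow. Under the replicate block, the counts over all lines were 36 for CSC, 33 for BaP, 34 for NNK, 10 for CSC against BaP, 21 for CSC against NNK and 6 for BaP against NNK. Over all treatments and in DMSO they were 35 and 17 for FAT1, 37 and 28 for CDKN2A, 38 and 19 for HCRED, 14 and 5 for NRF2, 9 and 0 for FGFR1, 5 and 1 for NRG1, and 18 and 5 for PIK3CA, and over the single lines 123, 73 and 69 with CSC, BaP and NNK, with 1 interaction. The replicate block together with the GC and length correction gave 18 for BaP, 13 for NNK, 2 for NRF2 and 2 for NRG1 in DMSO, and 61, 19 and 2 over the single lines.

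Counts without 1 line or replicate ranged from 33 to 38 for CSC, 28 to 34 for BaP, 27 to 36 for NNK, 6 to 10 for CSC against BaP, 10 to 22 for CSC against NNK and 1 to 8 for BaP against NNK. Without 1 treatment or replicate they were 30 to 35 for FAT1, 31 to 36 for CDKN2A, 31 to 37 for HCRED, 7 to 15 for NRF2, 5 to 8 for FGFR1, 1 to 4 for NRG1 and 12 to 18 for PIK3CA. In DMSO they were 13 to 15, 24 to 28, 14 to 17, 1 to 5, 0 to 1, 0 to 1 and 2 to 5 in that order of lines. Summed over single lines they were 66 to 83 with CSC, 26 to 35 with BaP and 30 to 37 with NNK, and interactions gave 0 to 0. These fits within lines have 2 libraries a group, or 1 where FGFR1 had 2, whose spread is then taken from the other groups.

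Some log2 fold changes turned direction. With the GC and length correction, CSC against DMSO gave MCM2 -0.15, PRIM1 0.11, POLE -0.022, RFC3 0.054, POLE2 0.028, CDT1 -0.023, TK1 -0.20 and POLD1 -0.11, and with the replicate block beside it MCM2 -0.15, PRIM1 0.10, POLE -0.021, RFC3 0.051, POLE2 0.017, CDT1 -0.033, TK1 -0.21 and POLD1 -0.10. With the GC and length correction, BaP against DMSO gave DTL 0.064, PRIM1 0.038, CDT1 -0.019, TK1 -0.14, POLD1 -0.11 and PCNA 0.006, and with the replicate block beside it DTL 0.067, PRIM1 0.040, CDT1 -0.014, TK1 -0.14, POLD1 -0.11 and PCNA 0.008. With the GC and length correction, NNK against DMSO gave CDC7 0.002, DTL 0.087, MCM6 0.041, MCM7 -0.15, CCNE2 0.038, POLD3 0.021, PRIM1 0.10, CHAF1A -0.15, UHRF1 -0.013, DNMT1 -0.11 and POLD1 -0.024, and with the replicate block beside it DTL 0.090, MCM6 0.040, MCM7 -0.15, CCNE2 0.036, POLD3 0.027, PRIM1 0.097, CHAF1A -0.15, UHRF1 -0.015, DNMT1 -0.10 and POLD1 -0.024. Against HCRED, FAT1 in DMSO gave DTL 0.44 and RFC3 0.002. Against HCRED, CDKN2A in DMSO gave CDC7 0.22, DTL 0.30, MCM3 0.038, POLA1 0.24, E2F7 0.20, CDT1 0.15 and DNMT1 0.12. Against HCRED, FAT1 over all treatments gave E2F2 0.24, ORC1 0.034, DTL 0.38, MCM7 0.17, GINS4 -0.056, POLE 0.051, CDT1 0.46, DNMT1 0.30, PCNA 0.25 and E2F1 0.067. Against HCRED, CDKN2A over all treatments gave CDC7 0.11, DTL 0.19, GINS4 -0.059, POLA1 0.36, E2F7 0.40, DNMT1 0.070, POLD1 0.16, GINS1 0.037 and PCNA 0.24. Why these values moved was not tested. The members with the fewest reads were E2F2, GINS3 and E2F8, with means of 14.3, 19.9 and 22.9 counts a library.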

Other observations

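The members with and without one of the 4 E2F site forms in their promoter are given side by side as a description. Against GFP, 20 of the 23 members with a form were lower in HCRED and 1 higher (median log2 fold change -0.34), and 10 of the 20 without were lower and 3 higher (median -0.20), where 22.2% of all genes were lower and 22.8% higher. In CDKN2A the counts were 15 lower and 1 higher with a form (median -0.31) and 9 lower and 6 higher without (median -0.11), against 28.3% and 29.4% of all genes. In FAT1 they were 17 lower and 1 higher (median -0.24) with a form and 9 lower and 3 higher (median -0.12) without, against 23.9% and 24.9%. After removal of the GC and length trend, the FAT1 medians were -0.42 and -0.13. Those of CDKN2A were then -0.26 and -0.11, and those of HCRED -0.33 and -0.26. With CSC against DMSO after removal of the GC and length trend, the medians were -0.11 with a form and -0.15 without, so the order was the other way round. Against HCRED and before removal of the trend, the medians with and without a form were -0.043 and 0.018 in NRF2. They were 0.065 and 0.122 in FGFR1, 0.057 and 0.059 in NRG1, and 0.109 and 0.151 in PIK3CA. The comparisons against GFP share its libraries, and those against HCRED share the HCRED libraries. No difference between the 2 sets was tested. CDC7, RRM2, TK1 and FEN1 are among the members without a form.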
